A study of Mus musculus with 2 samples.

Results

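Chromatin accessibility at 8 genes of the TALE homeobox class, Meis1, Meis2, Meis3, Pbx2, Pbx3, Pbx4, Pknox1 and Pknox2, was read from 1 ATAC-seq peak list of mouse embryonic cells. ATAC-seq cuts and tags open chromatin with the Tn5 transposase, and the peak list gives each open stretch as an interval with 1 or more summits, called entries here. An entry belonged to a gene when its summit lay inside the gene, or within 100 kb of it when that gene's end was the nearest end of any protein-coding gene. By this rule 236 of 138387 entries were assigned, and they lay in 168 of 104069 intervals. No entry was also assigned to another protein-coding gene. The samples were GFP-positive cells, labelled spinal motor neurons, sorted by FACS from Hb9::GFP embryos (strain C57/Bl6) at day 10.5 of gestation. GFP in this line reports the promoter of Hb9, also named Mnx1, so the sort selected cells by that promoter. The 2 replicates formed a single group and were pooled in 1 list, so no value below has a replicate error, no test was possible, and every comparison is a description of this list.

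TALE proteins carry a homeodomain lengthened by a short extra loop. Those of the Meis, Pbx and Pknox families act as DNA-binding partners of Hox proteins. Pbx proteins pair with Hox proteins on DNA. Meis and Pknox (also named Prep) proteins bind Pbx through their amino-terminal part and bind DNA beside it. In the spinal cord, Hox proteins and these partners take part in assigning motor neurons to columns and pools.

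The annotated start regions of these genes show what the open sites cover. RefSeq promoter sequences of the GRCm38.p6 assembly, which is the assembly of mm10, were at hand for 5 of the 8 genes, each with 250 bases before and 50 bases from the annotated start. Of these 5, 4 overlapped a deposited interval (Meis1, Meis3, Pbx2 and Pbx4), against 48.3% of 32851 promoters in the table. The Meis2 promoter did not, and the nearest interval ended 349 bp away. That promoter's start, at position 116064619, lies inside the annotated span of Meis2, which ends at 116067537. Summits did lie 338 and 343 bp from that end of the span. The 4 overlapped promoters are printed from 5′ to 3′, then those of G630016G05Rik and 2810405F15Rik, which are long noncoding RNA (lncRNA) genes whose start regions overlap 2 of the strongest Meis2 sites and which were chosen after those sites were seen. Capitals mark every match, on either strand, to 5 words. TGATTGAC is a composite word of Pbx with Meis or Pknox, TGATTGAT a word of Pbx with Hox, TGACAG the core bound by Meis and Pknox, CCAAT the box of the factor NF-Y, and GGGCGG the box of Sp factors.
Pbx4 (chr8:69832374-69832673, plus strand): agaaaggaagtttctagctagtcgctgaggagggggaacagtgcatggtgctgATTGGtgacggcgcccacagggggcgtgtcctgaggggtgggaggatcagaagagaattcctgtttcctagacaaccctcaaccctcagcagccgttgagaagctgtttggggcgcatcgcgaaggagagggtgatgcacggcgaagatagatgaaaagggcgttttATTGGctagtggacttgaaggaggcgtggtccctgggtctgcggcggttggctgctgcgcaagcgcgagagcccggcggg
Pbx2 (chr17:34592009-34592308, plus strand): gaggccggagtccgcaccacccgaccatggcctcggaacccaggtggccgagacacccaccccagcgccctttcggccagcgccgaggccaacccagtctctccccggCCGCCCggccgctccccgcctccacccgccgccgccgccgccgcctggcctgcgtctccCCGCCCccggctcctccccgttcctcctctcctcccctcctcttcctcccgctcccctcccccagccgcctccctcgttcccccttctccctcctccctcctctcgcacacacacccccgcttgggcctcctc
Meis1 (chr11:19018920-19019219, minus strand): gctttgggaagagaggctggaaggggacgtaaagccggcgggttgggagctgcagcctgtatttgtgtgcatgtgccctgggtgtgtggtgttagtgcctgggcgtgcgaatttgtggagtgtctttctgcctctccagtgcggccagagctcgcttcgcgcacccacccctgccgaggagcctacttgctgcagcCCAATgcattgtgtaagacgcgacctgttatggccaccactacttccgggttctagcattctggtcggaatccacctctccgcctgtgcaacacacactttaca
Meis3 (chr7:16175145-16175444, plus strand): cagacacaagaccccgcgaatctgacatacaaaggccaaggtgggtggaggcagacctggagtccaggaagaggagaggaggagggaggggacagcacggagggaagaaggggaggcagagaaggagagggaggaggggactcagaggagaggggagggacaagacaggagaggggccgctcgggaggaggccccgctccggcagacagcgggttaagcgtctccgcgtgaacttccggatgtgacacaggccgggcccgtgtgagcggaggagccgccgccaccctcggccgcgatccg
G630016G05Rik (chr2:116066975-116067274, plus strand): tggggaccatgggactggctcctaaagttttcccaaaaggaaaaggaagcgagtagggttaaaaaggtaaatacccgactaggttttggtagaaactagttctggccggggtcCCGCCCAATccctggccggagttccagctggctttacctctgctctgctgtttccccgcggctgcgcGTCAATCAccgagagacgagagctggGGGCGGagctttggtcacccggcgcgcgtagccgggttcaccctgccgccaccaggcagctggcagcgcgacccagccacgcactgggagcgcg
2810405F15Rik (chr2:116076047-116076346, minus strand): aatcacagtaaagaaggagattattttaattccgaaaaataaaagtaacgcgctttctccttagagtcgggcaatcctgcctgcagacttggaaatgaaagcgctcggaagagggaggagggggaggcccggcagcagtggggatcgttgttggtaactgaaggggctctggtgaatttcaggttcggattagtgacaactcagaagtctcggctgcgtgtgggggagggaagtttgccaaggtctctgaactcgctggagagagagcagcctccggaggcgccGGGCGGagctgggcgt

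None of the 5 member promoters held TGATTGAC, TGATTGAT or TGACAG, which occurred in 0.77%, 0.746% and 19.2% of all promoters. This says only that these letters are not in those windows. The strongest summit of Pbx4 lay 26 bp before the annotated start and fell on the last base of a CCAAT match, 30 to 26 bp before the start. At the other summits of intervals over these promoters, the nearest marked word lay 39 to 162 bp away, and the Meis3 promoter had none. Pbx4 had another CCAAT match, 197 to 193 bp before the start, and Meis1 had a match 54 to 50 bp before it. The Meis2 promoter, which no interval overlapped, also held the word, 210 to 206 bp before its start. CCAAT thus stood in 3 of the 5 member promoters and occurred in 37.4% of all promoters. Pbx2 had 2 GGGCGG matches, a word found in 35.7% of promoters, and the highest G and C content of the 5 member promoters at 76.0%, against a median of 52.7% over all. The start region of G630016G05Rik held TGATTGAC on its reverse strand, 70 to 63 bp before that start, with the summit of a Meis2 entry 26 bp before the start. In that window the CCAAT match shares bases with a reverse-strand GGGCGG match, so the capitals run together.

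The 8 genes fell into a group with many sites and a group with few. Meis1 had 69 entries, Meis2 62, Pknox2 53 and Pbx3 36, together 93.2% of the 236. Pbx4 had 6 entries, Meis3 4, and Pbx2 and Pknox1 3 each. The median of the 8 was 21, against 3 over 21883 protein-coding genes, of which 5.31% had 20 or more entries. The median falls in the gap between both groups and describes no single gene.

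**Figure D1:**
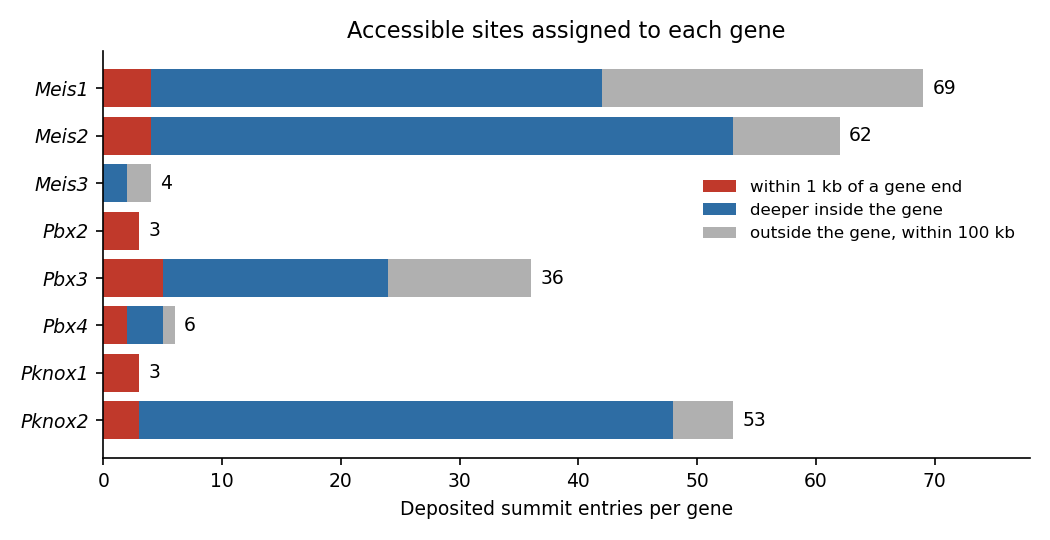
Deposited summit entries (x axis, count) assigned to each of the 8 genes (y axis), split by position: within 1 kb of a gene end (red), deeper inside the gene (blue) and outside it within 100 kb (grey). Meis1, Meis2, Pknox2 and Pbx3 hold 36 to 69 entries and the other genes 3 to 6.

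The genes with many entries were also the longest of the 8. They span 139 to 256 kb and those with few 5.14 to 43.0 kb, against a median of 17.2 kb over all genes. Per 100 kb of territory (the gene plus the sequence within 100 kb nearest to its ends), the 8 genes together had 16.5 entries, against 6.19 over all genes. Meis1 had 20.3 per 100 kb, Pknox2 18.1, Meis2 17.8, Meis3 16.4, Pbx4 13.5, Pbx3 11.3 and Pknox1 4.83. Pbx2, in a gene-dense stretch, has a territory of only 5.42 kb, so its 55.3 per 100 kb rests on 3 entries. Pknox1 was the only member below the pooled density of all genes. Of all genes, 9.56% had a density at or above that of Meis1.

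Meis1 had the most entries of the 8 genes. It ranked 46 of 21883 by entries, and of the 45 genes with more, 1 was shorter and 3 had a higher density. Those 45 had a median span of 913 kb, against 139 kb for Meis1. This order rests on intervals with several summits, since by intervals Meis1 ranked 80 with 44, behind Meis2, which ranked 58 with 50. By entries, the neighbours of Meis1 in the order were Nckap5 with 70 entries and Grip1, Msi2 and Rad51b with 69 each, at 6.88, 9.24, 15.1 and 10.6 entries per 100 kb. The neighbours of Meis2, which ranked 71, were Ntm with 63 and Frmd4a, Pcdh9 and Rarb with 62 each, at 5.71, 8.85, 5.75 and 8.25 per 100 kb. These genes are neighbours by count alone, since a pattern over samples cannot be had from 1 pooled profile.

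**Figure D2:**
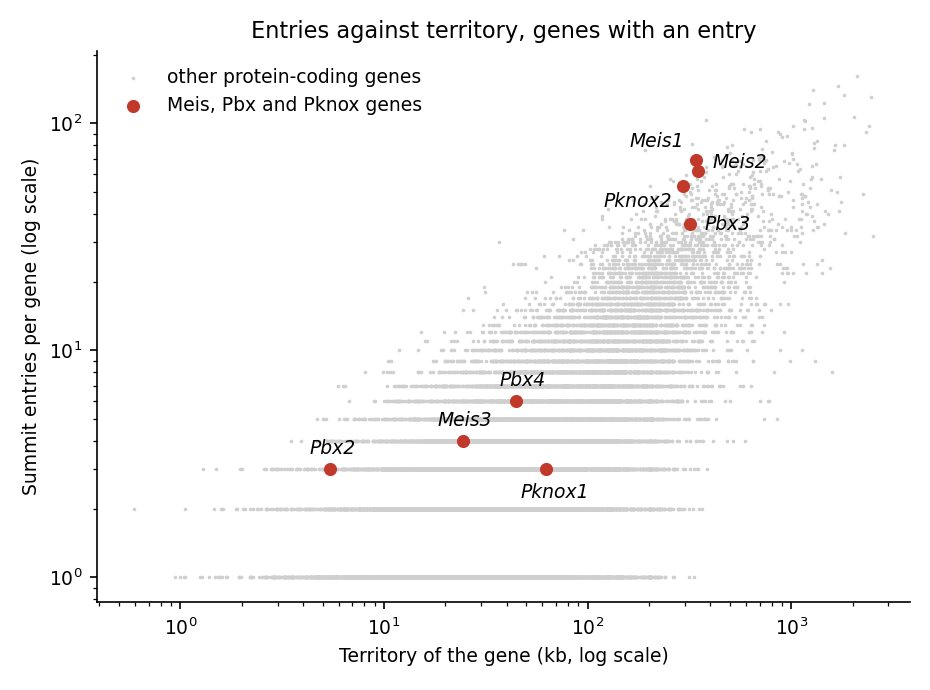
Entries per gene (y axis, log scale) against the territory of the gene in kb (x axis, log scale) for protein-coding genes with an entry, with the 8 Meis, Pbx and Pknox genes in red and other genes in grey. Meis1, Meis2 and Pknox2 lie at the upper edge for their territory, and Pknox1 has 3 entries in 62.1 kb.

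Entries are described below by fold and by reads. Fold is the authors' value, the summit's read pileup plus 1, divided by the local background of the peak caller plus 1. Reads are the pileup at the summit, recovered from the deposited fold and p-value, and lay within 0.01 of an integer at all 236 entries. They ranged from 11 to 210 with a median of 30, against a median of 24 over all entries. The median fold was 2.87, against 3.14 over all entries. Without the entries of Meis1 and Meis2 the members' median fold was also 3.14. Within 1 kb of a gene end lay 10.2% of the 236 entries, against 18.3% of all entries on the assembled chromosomes. This share was 7.27% (16 of 220) at the 4 genes with many entries and 50% (8 of 16) at the 4 with few. By position, the median fold was 3.48 against 5.49 within 1 kb of a gene end and 2.76 against 2.88 deeper inside genes. Outside the gene it was 2.67, against 2.98 between genes over all. Of the 236, 197 had a q-value under 0.05 (83.5%), against 82.3% of all entries. Intervals of counting error were not set on these pileups.

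The local background differed among the 8 genes. The local background had a median of 8.63 reads at the 236 entries, against 5.73 over all, and only 15.3% of them lay under 5.5 reads, close to the genome-wide floor of 5.37, against 47.2% of all entries. The median background was 11.04 reads at Meis1, 9.48 at Meis2 and 6.87 at Pknox2. Pbx3 did not share the higher background, with a median of 5.69 and with 14 of the 36 summits under 5.5 reads found over the 8 genes. Entries of 5-fold or more made up 16.1% (38 entries), against 25.4% of all. Of these 38, 9 lay within 1 kb of a gene end, 19 deeper inside a gene and 10 outside. The source of these background differences was not tested.

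**Figure D3:**
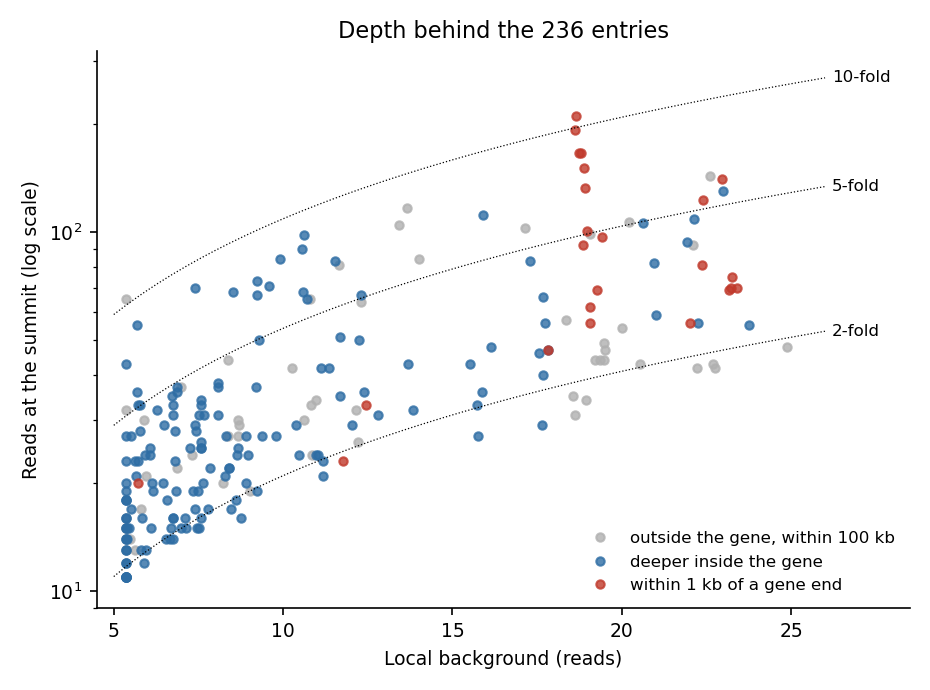
Reads at the summit (y axis, log scale) against local background in reads (x axis) for the 236 entries, by position, with dotted lines at 2-fold, 5-fold and 10-fold. Entries within 1 kb of a gene end (red) lie mostly at backgrounds of 17.8 to 23.4 reads, and most entries inside genes (blue) at lower backgrounds and fewer reads.

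Gene ends were open at most of the 8 genes. A summit lay within 1 kb of an annotated end at 7 of 8, against 65.5% of all genes. The strongest such entry of the 7 had a median of 5.93-fold and 141 reads, against 8.16-fold and 97 reads over all genes with one. The background there was 17.8 to 22.9 reads, against a median of 10.7 over all such genes, so the lower fold came with more reads.

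Pbx4 (NCBI Gene 80720, chr8:69832476-69872292), the Pbx gene best known in the adult mouse from testis, had the strongest entry of the 8 genes. Its interval at chr8:69832071-69833050 held 2 summits of 10.7-fold with 210 reads and 9.84-fold with 192 reads, both inside the promoter printed above. Of all genes with a gene-end entry, 4.95% had as many reads and 20.7% as high a fold. The other 4 entries of Pbx4 had 1.93 to 2.79-fold and 14 to 19 reads, with 2.79-fold and 19 reads at the best of those inside the gene and 1.99-fold and 19 reads at the one outside.

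Pknox1 (NCBI Gene 18771, chr17:31564722-31607693) encodes a broadly expressed partner of Pbx. It was open at its lower-coordinate end and nowhere else in reach. A single interval of 1717 bp (chr17:31563875-31565591) held its 3 summits, of 8.47, 8.43 and 4.68-fold with 166, 166 and 92 reads. No further entry lay in its 43.0 kb span or in the 19.2 kb of flanking territory. Sites below the caller's limit would not be listed.

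Pbx2 (NCBI Gene 18515, chr17:34592259-34597400), a broadly expressed Hox partner, had the lowest best entry of the 8 genes. Its 3 entries at the start had 2.55, 2.53 and 1.88-fold with 47, 33 and 23 reads, and 2 of them had a q-value under 0.05. The strongest lay at chr17:34591878-34592193, 191 bp from the end of Pbx2 and 314 bp from that of its neighbour Gpsm3, so it cannot be given to either gene by position alone. Of all genes with a gene-end entry, 94.7% had as high a fold or higher.

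Meis3 (NCBI Gene 17537, chr7:16174012-16186510), a relative of Meis1 known from hindbrain patterning in Xenopus, had no summit within 1 kb of its annotated ends, but its RefSeq promoter lies inside the annotated span and was open. The interval chr7:16174779-16175636 held summits of 3.78-fold with 82 reads, 48 bp before the promoter's start, and of 2.73-fold with 59 reads. The strongest entry of Meis3 was outside the gene at chr7:16172172-16172524, 1650 bp from its lower-coordinate end, with 5.09-fold and 107 reads. The remaining entry had 2.04-fold and 43 reads. All 4 lay within 2.99 kb of each other.

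At the genes with many sites, entries spread over the whole locus. Meis1 (NCBI Gene 17268, chr11:18880428-19019651) and Meis2 (NCBI Gene 17536, chr2:115861264-116067537) encode close relatives that bind DNA with Pbx and Hox proteins, and both lie on the minus strand. Meis1 had 40 entries inside its span, 15 below the lower-coordinate end, which is its 3′ end, and 14 beyond its 5′ end. With the span cut into 3 equal parts, 10 lay in the part at the 3′ end, 13 in the middle and 17 in the part at the 5′ end. The density was 28.7 per 100 kb inside the gene and 14.5 in its flanks.

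**Figure D4:**
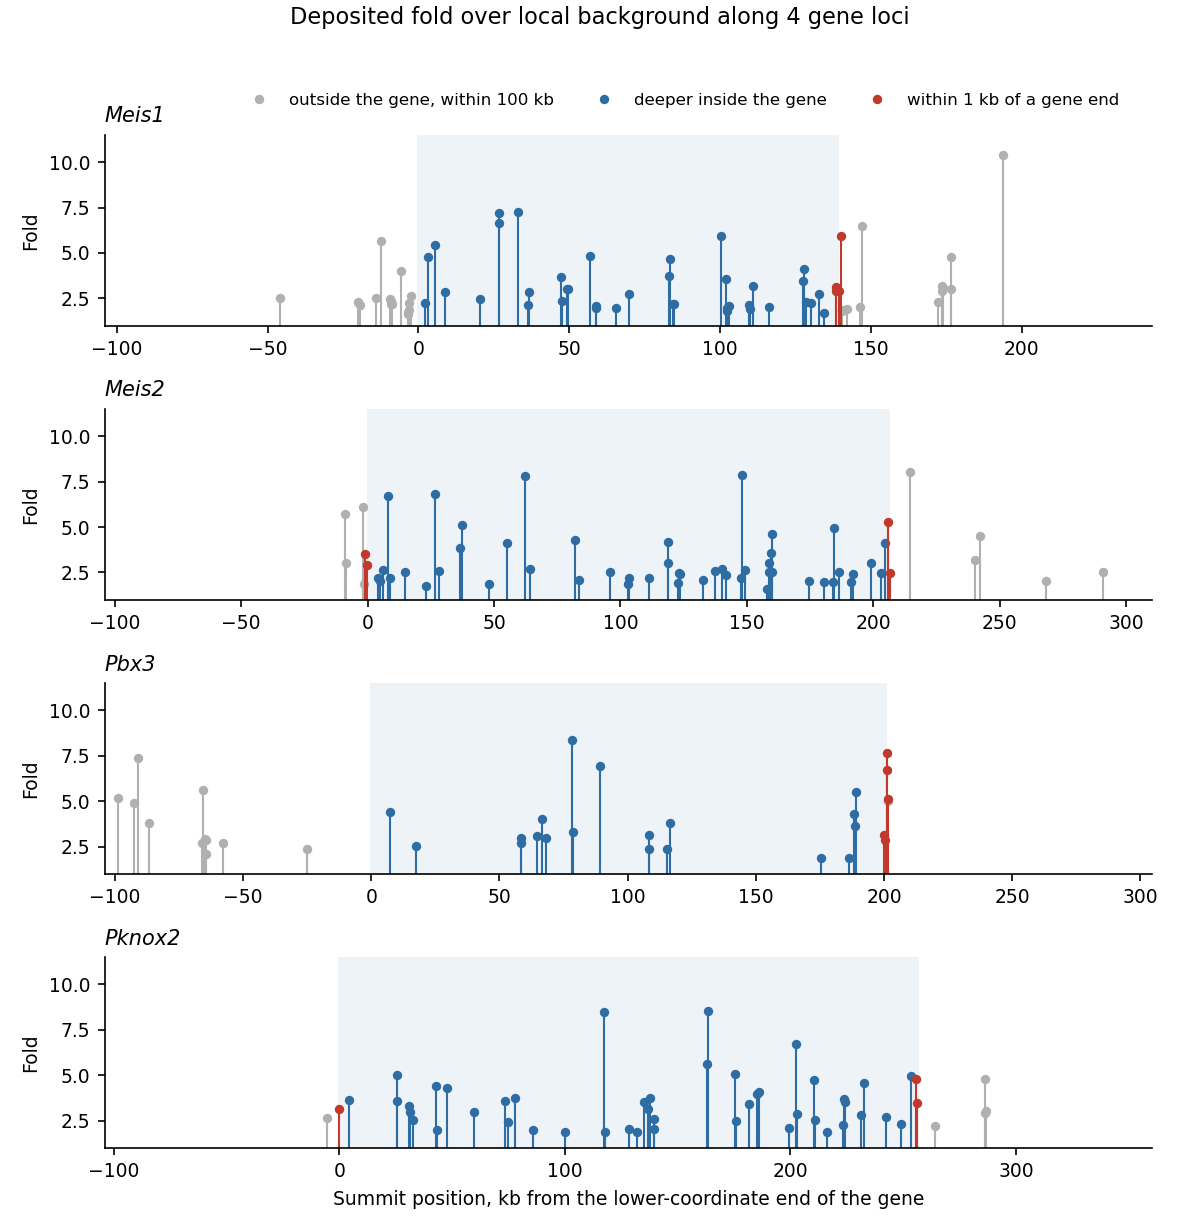
Deposited fold over local background (y axis) at each summit along Meis1, Meis2, Pbx3 and Pknox2, with distance in kb from the lower-coordinate end of the gene (x axis) and the gene span shaded. Colours give position as within 1 kb of a gene end (red), deeper inside (blue) and outside within 100 kb (grey). Meis1 and Meis2 have sites near both ends and throughout, Pbx3 has separate clusters and Pknox2 has most sites inside.

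The Meis1 entry with the lowest q-value lay just upstream of the gene, at chr11:19020408-19021179, with 5.93-fold and 141 reads, 922 bp from the annotated 5′ end. The interval on the promoter printed above (chr11:19018611-19019153) was lower, with summits of 3.13-fold and 75 reads and 2.90-fold and 69 reads. More than 1 kb inside the gene, the entry with the lowest q-value was at chr11:18885557-18886175, with 5.46-fold and 130 reads, 5.44 kb from the 3′ end. The highest fold of the gene, 10.4, was at chr11:19074149-19074444, 54.7 kb upstream. It rested on 65 reads, over the floor background of 5.37. That summit lay inside the lncRNA gene 4933406G16Rik.

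Sites of Meis1 gathered at both ends. In a stretch of 23.2 kb reaching 3.21 kb into the gene from outside at the 3′ end lay 16 entries in 9 intervals. Around the 5′ end, 15 entries in 10 intervals lay within 19.6 kb. The lncRNA gene 8430419K02Rik, next to the 3′ end, held 13 of the Meis1 entries, with 1.63 to 5.67-fold. Another 10 lay inside both Meis1 and the lncRNA gene Gm16141. Which of the overlapping genes such sites act on was not tested.

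Meis2 kept most of its sites inside the gene, 50 of 62. From the 3′ to the 5′ end, equal parts of the span held 15, 13 and 22, at 24.2 per 100 kb, against 8.50 in the flanks. Its entry with the lowest q-value was outside, at chr2:116075514-116076244, with 8.04-fold and 117 reads, 8.38 kb upstream of the 5′ end. That summit lay 181 bp past the start of 2810405F15Rik, whose promoter is printed above. At the 5′ end the strongest entry, 5.30-fold with 123 reads at chr2:116066880-116067421, lay in the start region of the lncRNA gene G630016G05Rik. This is the window with the TGATTGAC match. The start of G630016G05Rik lies inside the span of Meis2 and runs on the opposite strand.

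The 3′ end of Meis2 was open as well. The interval chr2:115859217-115861021 held 4 summits, with 6.10-fold and 143 reads at the strongest, 1.79 kb past the gene. Inside the gene the entry with the lowest q-value was at chr2:115868868-115869446, with 6.68-fold and 112 reads, 7.96 kb from the 3′ end. Deeper sites included 7.86-fold with 90 reads at chr2:116008919-116009775, 58.2 kb from the 5′ end, and 7.80-fold with 84 reads at chr2:115923410-115923995, 62.3 kb from the 3′ end. An interval of 2102 bp at chr2:116019530-116021631 held 5 summits of 2.53 to 4.59-fold.

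Pbx3 (NCBI Gene 18516, chr2:34171457-34372045) encodes a Hox partner whose loss in mice impairs the central control of breathing. It had 1 broad open stretch at its higher-coordinate end and clusters elsewhere. The interval chr2:34371079-34373528 was the widest of the 168, at 2450 bp, and held 6 summits. The strongest of these had 7.64-fold with 151 reads and 6.73-fold with 133 reads. The strand of Pbx3, Pknox1 and Pknox2 was not given in the table used, so their ends are named by coordinate. Inside the gene the highest was 8.37-fold with 55 reads at chr2:34249551-34250487, 78.3 kb from the lower end. The median distance between neighbouring intervals was 8.70 kb, against 3.43 kb at Meis1 and 4.63 kb at Meis2.

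Far from Pbx3, 9 entries lay inside the lncRNA gene C230014O12Rik, with 2.11 to 7.35-fold. The strongest of them, at chr2:34079968-34080726, was 91.1 kb from Pbx3 with 105 reads. They were assigned to Pbx3 because only protein-coding genes compete for an entry. The entry farthest within the reach of 100 kb was of this group, at 98.6 kb with 5.18-fold and 32 reads. The nearest entry beyond the reach was at 100.6 kb from Meis1, with 2.51-fold and 15 reads.

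Pknox2 (NCBI Gene 208076, chr9:36890979-37147342), the closest relative of Pknox1, had most sites inside the gene, 47 of 53, at 18.3 per 100 kb. Its flanking territory was only 36.5 kb and had a similar density, 16.5 per 100 kb. At Meis2 the density was 24.2 inside and 8.50 in the flanks. From the lower to the higher end, equal parts of the span held 13, 13 and 21. Its entry with the highest fold and the lowest q-value was deep inside, at chr9:37053908-37054695, 93.1 kb from the higher-coordinate end. It had 8.53-fold and 98 reads over a background of 10.6. That interval overlapped a start region of the lncRNA gene Gm34538, and its main summit lay 318 bp past that start. Next by fold was chr9:37007901-37008814, with 8.46-fold and 70 reads. The most reads, 106, lay at chr9:37144132-37144583, 2.90 kb inside the higher end, at 4.95-fold over a background of 20.6. Outside the gene the best was 4.76-fold with 37 reads at chr9:37176991-37177899, 29.9 kb from the higher end. The gene-end entries of Pknox2 were lower in fold than the deep site. At the higher end they had 4.80-fold with 97 reads, over a background of 19.4, and 3.46-fold with 69 reads. The lower end had 3.13-fold with 20 reads. All 3 entries of Pknox1 thus lay at 1 end, against 3 of 53 at either end of Pknox2.

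In all, 43 of the 236 summits lay inside another annotated gene, and in all 43 this was a lncRNA gene. This is 18.2% of the members' summits, against 11.02% of all summits on the assembled chromosomes. Of the 67 summits outside the span of their member, 25 did so (37.3%), against 16.5% of all summits outside protein-coding genes. Most of these 25 lay in 8430419K02Rik beside Meis1 (13) and C230014O12Rik (9). Inside the member's own span lay 71.6% of entries (95% exact binomial interval 65.4 to 77.3%, counting error only, entries being taken as independent although up to 6 share an interval), against 60.7% of assignments over all genes. The share was 88.7% at Pknox2 and 80.6% at Meis2, but 58.3% at Pbx3, 58.0% at Meis1 and 50% at Meis3, below that of all genes. These shares, including the 71.6% and 60.7%, depend on how much of a territory is span, and were not adjusted for it. Span was 256 of 293 kb at Pknox2, but 139 of 339 kb at Meis1. Per 100 kb, Meis1 had 28.7 entries inside and 14.5 in its flanks, Meis2 24.2 and 8.50, and Pknox2 18.3 and 16.5. Pbx3 had fewer inside, with 10.47 against 12.78, but 9 of its 15 entries outside the span lay inside C230014O12Rik, 64.3 to 98.6 kb away. A reach of 50 kb left Pbx3 26 entries, of which 21 lay inside. Its inside and flank densities were not computed at that reach. At the genes with 3 to 6 entries the density inside was also lower than in the flanks. Those flank values rest on 1 entry each at Pbx2, Pbx4 and Pknox1 and on 2 at Meis3.

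Other TALE-class genes (Tgif1, Tgif2, Mkx and Irx1 to Irx6) were read the same way. With them was read Pbxip1, the gene of a Pbx-binding protein, which is a partner and not a TALE-class gene. It is counted in the values below. All 10 had an entry at a gene end, against 65.5% of all genes, and none was without an entry. They had 4 to 27 entries, with a median of 15.5, led by Irx5 with 27, Irx3 with 26 and Irx6 with 19. The 8 Meis, Pbx and Pknox genes had a pooled density of 16.5 per 100 kb, against 10.7 at these 10. None reached the counts of Meis1, Meis2, Pknox2 or Pbx3, but all 10 are shorter, at 3.14 to 69.8 kb. Per 100 kb, Meis1 with 20.3 stood below Pbxip1 with 23.7 and Tgif2 with 20.8, and Pknox2, Meis2 and Pbx3 also stood below Tgif1 with 19.8. The strongest gene-end entries had a median of 5.93-fold at the 7 members with one, against 4.56-fold at the 10 other genes.

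Markers of the labelled and of other cell types were checked at their gene ends. A gene-end entry was present at 7 of 8 motor neuron markers, Isl2 being the exception, against 65.5% of all genes, with 3.08 to 10.9-fold at the strongest entry of each. It was present at 4 of 4 neural progenitor markers, with 3.92 to 4.56-fold. It was also present at 3 of 4 skeletal muscle markers, with 2.36 to 3.85-fold, and at 2 of 4 endothelial markers, with 2.65 and 7.67-fold. Of the blood and microglia markers 1 of 5 had one (Spi1, 10.98-fold), and of the epidermal markers 0 of 3. Meis, Pbx and Pknox genes are used in many embryonic tissues. The part of other cells in their sites was not tested, and in sorted bulk cells a site open in few cells and a site weakly open in all cannot be told apart.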

How the data were processed

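ATAC-seq was run on 2 replicates with 8 to 9 PCR cycles and paired 75-nt reads, per the labels' protocols. Only 1 peak list, pooled over both replicates and filtered per its file name, was analysed. Build mm10 and 5 tools stand in the submitters' processing notes: MACS2 2.2.7.1 (peak calling in general use), SAMtools 1.7.2, BWA 0.7.1.7, cutadapt 0.6.2 and Trim Galore. For their settings, the filter, duplicates and any Tn5 shift, the sources used here say nothing, and a missing shift would move summits by a few bases. The authors deposited a fold (ratio over local background), −log10 p-values and q-values, a score that was not used, and a summit offset per entry.

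Reads and background were solved from the deposited fold and −log10 p as a Poisson tail with (pileup + 1)/(background + 1), which gave whole numbers within 0.01 in 99.96% of entries. On simulated data 100.0% of 4992 pileups and of 3000 assignments were recovered. Genes came from a GRCm38.p6 table (21883 protein-coding genes, unplaced sequences left out). Coordinates are mm10, counted from 1. Python 3.11.15, pandas 2.3.3 and scipy 1.17.1 were used. No protein table or genome was used, so the planned protein comparison and motif counts around summits were not made.

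The members and lists were chosen with earlier results of these data known. The genes named were all 8 members with their strongest entry per position and the 10 entries with the lowest q-values, the TALE-class genes with most entries or none, and the neighbours of Meis1 and Meis2 by count. Further entries and the lncRNA genes were named after their values were seen.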

Additional observations from a re-analysis of the deposited data

How the results depend on the processing

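When only the 50% of the list with the lowest q-values was kept, 118 member entries were left, the median per gene was 12 and the density 8.23 per 100 kb, against 2 entries and 3.17 per 100 kb over all genes. Without Meis1 and Meis2, 105 entries were left and the median per gene was 5. Changes beyond 1.5 times were limited to these 5 of 43 summary values and 9 of 48 counts per gene. The share inside the span was judged by its binomial interval instead, and stayed within it. The 9 counts came from keeping 50% of the list and from keeping 1 entry per interval. In the latter, Meis1 fell to 44, Pbx3 to 23 and Pknox1 to 1. The other settings were q-values under 0.05, 1 entry per interval, a reach of 50 kb, named genes only, a background under 30 reads and a gene end of 500 bp. Over all settings the density stayed between 8.23 and 18.1 per 100 kb and above that of all genes. With 1 entry per interval Meis2 (50) passed Meis1 (44), and with a reach of 50 kb Pbx3 had 26 entries. Counting an interval that overlaps the 1 kb window, a setting added after the data were seen, Meis3 also had a gene-end entry (8 of 8, against 67.1% of all genes). No replicate could be left out, since the list is pooled. No paired analysis was possible because the replicates form a single group in 1 pooled list.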

Other observations

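Beyond the 100 kb reach, 49 further entries had a Meis1 end as the nearest protein-coding gene end and 12 had a Meis2 end, while the other 6 genes had none. By reads, the strongest on the Meis1 side was at chr11:18747500-18748580, 132 kb from the gene, with 7.24-fold and 147 reads, against at most 141 reads among the 69 entries counted for Meis1. The strongest on the Meis2 side was at chr2:116272685-116273130, 205 kb from the gene, with 41.3-fold and 482 reads, more than any of the 236 entries. Next to it, 208 kb from Meis2, lay an entry of 10.6-fold with 130 reads. These entries were read after the counts were known, and no gene was assigned to them.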
